A study of Mus musculus with 4 samples.

Results

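CpG islands that were neither methylated nor unmethylated in control male germ cells were followed after loss of Np95. An island was a merged run of at least 30 listed CpGs spanning under 500 bp, with at least 10 CpGs carrying a value in all 4 samples. Of 15995 such islands on the autosomes, 332 (2.08%) had a mean methylation level from 20 to under 80% in both controls. These 332 are called intermediate islands here. Another 622 islands lay at 80% or more in both controls and are called methylated, 14898 lay under 20% in both and are called unmethylated, and 143 had 1 control inside the range and 1 outside.

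Methylation came from whole-genome bisulfite sequencing with PBAT (post-bisulfite adaptor tagging). Bisulfite turns unmethylated cytosines into bases read as T and leaves methylated ones as C, and PBAT joins the adaptors after that step. The 4 samples were male germ cells from testes of 21-day-old mice: 2 controls of genotype Np95fl/fl, which carry the floxed Np95 gene without Cre, and 2 knockouts of genotype Np95fl/fl:Stra8-Cre, which carry the same floxed gene. Stra8-Cre is a recombinase driven by the Stra8 promoter, active in premeiotic male germ cells, so the gene is deleted only in cells that have expressed it. The labels do not tie a sample to its own animal, and the spread behind each p-value may therefore be technical. The DNA was bulk, and a shift in the mix of cells cannot be told apart from a change of level within cells.

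CpG islands are stretches dense in CpG, and most of them mark gene starts and stay free of DNA methylation. Islands inside gene bodies or between genes are more often methylated. Np95, also named Uhrf1, binds hemimethylated DNA after replication and recruits Dnmt1, the methyltransferase that copies the mark to the new strand. A level between the extremes can come from CpGs that each carry the mark on some DNA molecules, or from islands in which fully methylated and unmethylated CpGs lie side by side.

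Islands at marker genes served as a check of the labelled cell type. Of 12 islands at germline genes that somatic cells methylate, 11 lay under 20% in both controls and the other reached 94.7%. All 28 islands at imprinted genes that carry methylation on the maternal copy lay between 1.20 and 6.55% in controls. The 4 islands at imprinted genes that carry methylation on the paternal copy were low too, between 1.10 and 4.78% in controls. They came from 2 of the 4 genes listed, and whether they hold the regions that carry the paternal methylation was not tested. None of these islands was intermediate. In knockouts the germline and maternal islands were more methylated. The 12 germline islands had sample medians of 6.59 and 6.43% in control replicates 1 and 2, and of 17.8 and 11.1% in knockout replicates 1 and 2, and 10 of them were higher in both knockouts. The 28 maternal islands had medians of 4.62 and 2.66% in control replicates and 9.23 and 5.95% in knockout replicates, and 21 were higher in both knockouts, up to a knockout mean of 15.2%. Their levels summed over islands were 126 and 87.9 in controls against 247 and 178 in knockouts. Over all 16151 islands 19.6% were higher in both knockouts. The rise was not particular to these markers: 42 of 49 islands at clustered protocadherins and 18 of 28 at meiotic genes were higher in both. The counts were 24 of 68 at Hox genes and 8 of 46 at replication-dependent histones. Somatic cells are methylated at the germline and maternal islands, and the part of the shift at those islands in the results below was not tested.

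Few intermediate islands sat at a gene start. RefSeq start sites lay inside 10 of the 324 intermediate islands on chromosomes for which start sites were at hand (3.09%). The share was 63.1% for islands under 20%, and none of the 603 methylated islands on those chromosomes held one. The start-site windows below, from RefSeq on build GRCm38.p6, run from 250 bases before to 50 bases after a start site. They are shown because they let the letters be set beside the CpG values. Capitals mark each CpG that lay in the island, was measured in all 4 samples and had a mean control level from 20 to under 80%.

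LOC115487747, chr11:113173034-113173333, minus strand: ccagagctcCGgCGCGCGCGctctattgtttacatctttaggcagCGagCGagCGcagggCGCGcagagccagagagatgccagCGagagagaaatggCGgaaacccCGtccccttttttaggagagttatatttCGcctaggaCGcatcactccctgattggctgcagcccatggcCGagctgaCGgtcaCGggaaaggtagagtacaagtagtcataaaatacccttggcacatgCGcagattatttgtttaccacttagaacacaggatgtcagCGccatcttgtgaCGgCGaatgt

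Gm24463, chr9:89066579-89066878, plus strand: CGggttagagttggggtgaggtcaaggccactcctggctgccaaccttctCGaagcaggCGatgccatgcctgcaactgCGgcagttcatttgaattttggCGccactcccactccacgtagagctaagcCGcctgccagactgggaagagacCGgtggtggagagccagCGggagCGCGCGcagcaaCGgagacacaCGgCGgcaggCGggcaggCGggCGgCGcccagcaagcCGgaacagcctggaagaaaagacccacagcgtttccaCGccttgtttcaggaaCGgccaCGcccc

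Tmem267 first start, chr13:119487836-119488135, plus strand: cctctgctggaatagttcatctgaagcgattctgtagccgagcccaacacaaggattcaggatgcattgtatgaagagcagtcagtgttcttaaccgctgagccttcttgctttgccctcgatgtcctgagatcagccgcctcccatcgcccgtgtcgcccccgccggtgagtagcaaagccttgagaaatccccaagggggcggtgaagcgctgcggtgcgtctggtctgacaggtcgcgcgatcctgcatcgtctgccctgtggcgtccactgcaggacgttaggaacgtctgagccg

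Tmem267 second start, chr13:119488223-119488522, plus strand: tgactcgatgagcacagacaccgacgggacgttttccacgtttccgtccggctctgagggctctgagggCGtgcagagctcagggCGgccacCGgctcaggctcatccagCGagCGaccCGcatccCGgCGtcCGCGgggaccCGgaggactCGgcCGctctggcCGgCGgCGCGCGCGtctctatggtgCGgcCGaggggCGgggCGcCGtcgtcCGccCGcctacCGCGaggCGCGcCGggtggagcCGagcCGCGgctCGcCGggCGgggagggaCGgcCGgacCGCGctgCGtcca

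Gm10476, chr12:22467206-22467505, minus strand: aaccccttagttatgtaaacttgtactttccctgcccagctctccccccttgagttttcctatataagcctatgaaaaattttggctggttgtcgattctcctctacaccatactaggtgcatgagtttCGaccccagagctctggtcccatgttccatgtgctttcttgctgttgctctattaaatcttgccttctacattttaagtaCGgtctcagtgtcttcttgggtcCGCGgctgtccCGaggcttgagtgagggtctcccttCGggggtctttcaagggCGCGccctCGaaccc

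Gm40862 first listed start, chr12:23634343-23634642, minus strand: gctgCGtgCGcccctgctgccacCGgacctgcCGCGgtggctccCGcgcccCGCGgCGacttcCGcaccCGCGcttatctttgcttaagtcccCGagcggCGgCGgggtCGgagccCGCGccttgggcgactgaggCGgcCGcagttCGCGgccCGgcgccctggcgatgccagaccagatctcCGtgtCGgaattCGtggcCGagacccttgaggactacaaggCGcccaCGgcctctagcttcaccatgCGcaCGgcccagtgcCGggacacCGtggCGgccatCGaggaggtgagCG

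Gm40862 second listed start, chr12:23634796-23635095, minus strand: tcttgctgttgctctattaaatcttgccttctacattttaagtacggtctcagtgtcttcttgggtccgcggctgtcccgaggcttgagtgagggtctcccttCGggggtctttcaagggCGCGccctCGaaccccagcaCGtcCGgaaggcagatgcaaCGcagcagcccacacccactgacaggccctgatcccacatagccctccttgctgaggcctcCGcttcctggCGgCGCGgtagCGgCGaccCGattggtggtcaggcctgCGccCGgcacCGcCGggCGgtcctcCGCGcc

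Gm38699, chr12:23800906-23801205, minus strand: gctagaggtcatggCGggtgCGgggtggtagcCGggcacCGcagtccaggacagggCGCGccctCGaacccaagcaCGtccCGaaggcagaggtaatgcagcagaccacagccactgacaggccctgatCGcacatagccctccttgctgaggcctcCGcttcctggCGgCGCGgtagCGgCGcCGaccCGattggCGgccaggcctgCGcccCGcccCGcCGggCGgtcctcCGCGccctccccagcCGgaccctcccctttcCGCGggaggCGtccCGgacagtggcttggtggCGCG

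In some windows all CpGs were intermediate, and the Tmem267 windows show unmethylated and intermediate CpGs in the same island. In LOC115487747 all 22 CpGs were capitals, with a mean level of 57.6% in controls and 29.0% in knockouts. The 2 Tmem267 windows lie in the same island, yet the first held 22 CpGs of which 0 were intermediate (3.0% in controls, 4.7% in knockouts). The second held 50 CpGs, 42 of them intermediate, at 38.1% in controls and 41.5% in knockouts. The chromosome 12 windows share sequence. Bases 1 to 135 of the second Gm40862 window were identical to bases 166 to 300 of the Gm10476 window. Bases 53 to 239 of the Gm38699 window matched bases 117 to 300 of the second Gm40862 window at 92.0% identity. Reads from such copies can be hard to place, and how reads that match several places were treated is not given in the sources used here. A RefSeq start-site window holds a median of 7 CpGs over the 32851 windows.

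Over all 332 intermediate islands, methylation was lower in both knockouts than in both controls. Control replicates 1 and 2 averaged 55.5 and 56.4%, knockout replicates 1 and 2 averaged 38.0 and 37.0%, and the groups did not overlap. The difference was -18.4 points between 56.0% ± 0.676 (SD, n = 2) and 37.5% ± 0.717 (SD, n = 2), many times the spread within either group. Permuting the samples (exact, two-sided) gave p = 0.333 (0.367 after Benjamini-Hochberg adjustment over 11 such tests), which is the smallest p that 2 against 2 samples allow. The knockouts kept 67.1% of the control level. The control values had chosen the islands and are a description here, whereas no knockout value entered the choice.

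The kept share was close to that of methylated islands. The 622 islands at 80% or more in both controls averaged 87.2 and 88.7% in controls and 58.1 and 58.4% in knockouts. Dividing the mean of the intermediate islands by that of the methylated ones gave 0.636 in either control, and 0.654 and 0.634 in knockout replicates 1 and 2. The knockout values lie on both sides of the control ones (exact two-sided permutation p = 1). The direction of this small shift changed with the settings. It was -0.021 with a range of 30 to under 70%. With at least 20 CpGs measured it was 0.016, and on each sample's own cytosines 0.014. These settings separated the groups. With islands of 40 CpGs per 500 bp it was 0.020, and the groups were not separate (exact two-sided permutation p = 0.667).

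**Figure D1:**
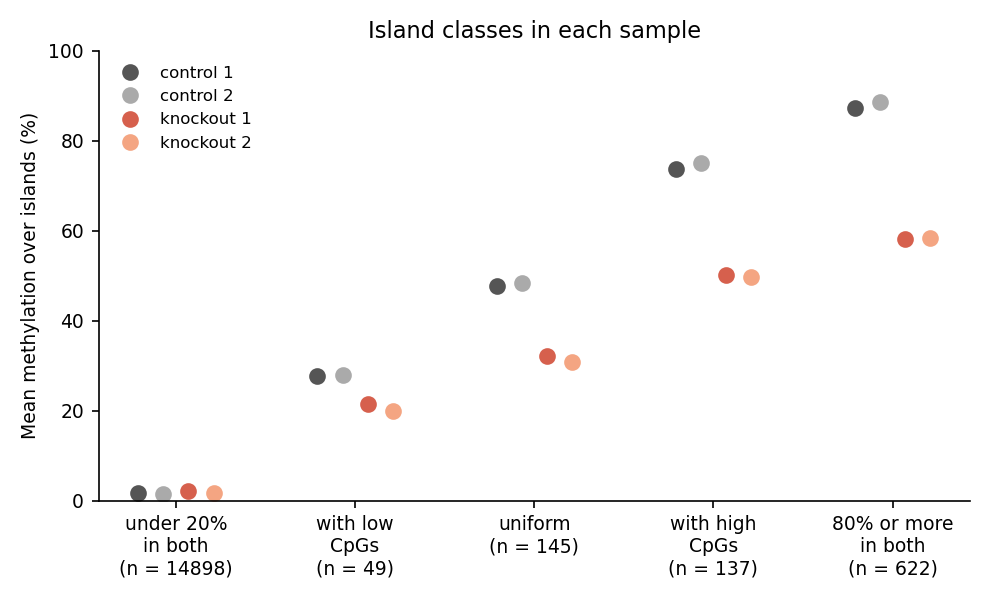
Each point is the mean methylation level (%) over the islands of a class in 1 sample, with 2 controls in grey and 2 knockouts in orange. Every class of intermediate islands and the methylated islands were lower in both knockouts, and unmethylated islands lay between 1.59 and 2.06% in every sample.

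Island by island, 192 of the 332 passed the limma test as lower in knockouts (adjusted p under 0.05 over all islands and a fall of at least 10 points) and 0 as higher. Over all 16151 islands the same rule called 5.82% lower and 0.31% higher. At an unadjusted p under 0.05, 254 of the 332 were lower and 0 higher. Most of the islands in the table start near 0 and cannot fall by 10 points. In 296 of the intermediate islands both knockouts lay below both controls, in 2 both lay above, and in 34 the groups overlapped. Over all 16151 islands both knockouts lay below both controls in 25.1% and above them in 19.6%, and over the 622 methylated islands they lay below in 622. The 2 that lay above were at Abcb9 and Gm12892. The calls depended on the knockout samples: 45 islands were called without knockout replicate 1 and 64 without knockout replicate 2. With each island tested on its own spread alone, 0 passed (smallest adjusted p = 0.0521), and 202 were lower at an unadjusted p under 0.05.

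**Figure D2:**
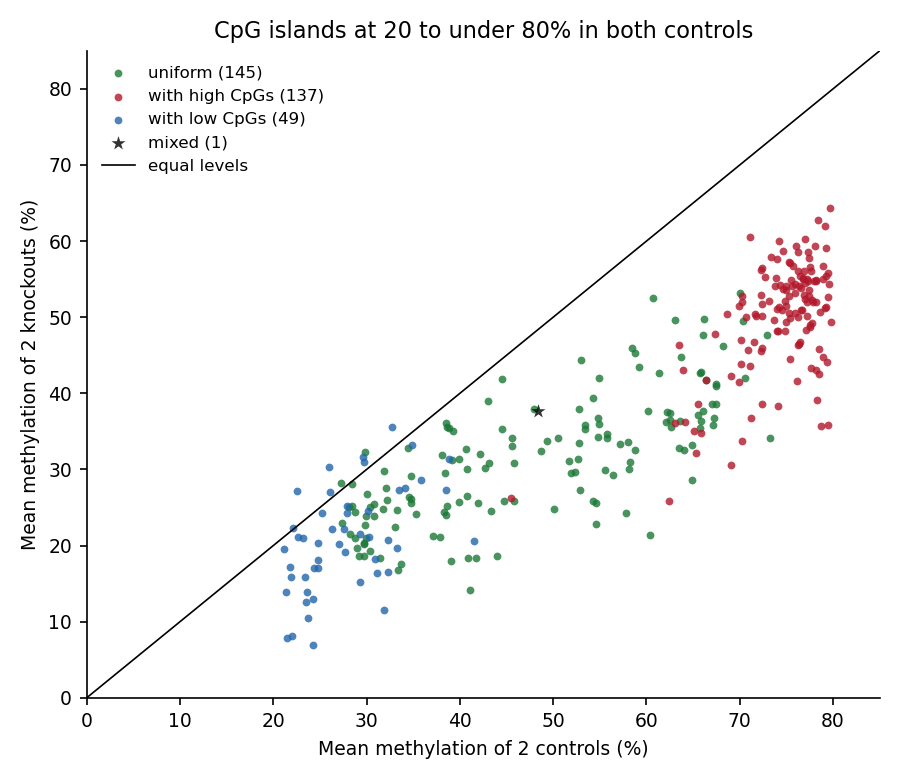
Each point is 1 of the 332 intermediate islands, with the mean level of 2 controls on the x axis and of 2 knockouts on the y axis (%), coloured by class. Most points lie below the line of equal levels, and the 9 points above it have control levels under 40%.

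The share kept differed between ranges of the starting level. Islands at 20 to under 40% kept 75.7% of their control mean, those at 40 to under 60% kept 63.0%, and those at 60 to under 80% kept 66.0%. Since a stratum chosen on a noisy control value is biased, strata were also set on 1 control and read against the other. With the 20 to under 40% stratum chosen on control replicate 1, the knockouts kept 75.4% of control replicate 2, and with the controls exchanged the share was 76.8%. The same shares were 61.5 and 64.4% for the 40 to under 60% stratum, and 65.5 and 66.8% for the 60 to under 80% stratum. Across the 332 islands the correlation between control level and kept share was r = -0.25, a description in which the control level enters both axes.

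Intermediate levels mostly came from CpGs that were themselves intermediate. Of 12124 CpGs measured in these islands, 70.6% had a control mean from 20 to under 80%, 18.4% lay at 80% or more and 10.95% lay under 20%. In knockouts 0.817% were at 80% or more and 20.9% under 20%. In the methylated islands 85.1% of CpGs were at 80% or more in controls and 5.72% in knockouts.

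An island was called uniform where at least 75% of its CpGs were intermediate in controls, and 145 islands were. It was called mixed where at least 20% of CpGs were high and at least 20% low, and 1 island met this. The others were split, after the data had been seen, into 137 with at least 20% high CpGs and 49 with at least 20% low CpGs. The mean levels were 47.7, 48.4, 32.2 and 30.8% in uniform islands over control replicates 1 and 2 and knockout replicates 1 and 2. They were 73.7, 75.1, 50.2 and 49.8% in islands with high CpGs, and 27.7, 27.9, 21.5 and 19.9% in islands with low CpGs. All 3 classes were lower in both knockouts. The classes kept 65.4, 67.2 and 74.4% in that order, and they differ in starting level.

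In 36 islands all CpGs were intermediate in controls. Of these, 31 (86.1%) had both knockouts below both controls, against 89.2% of all 332. Called lower were 8 (22.2%), against 38.6% of uniform islands and 57.8% of all 332. The controls differed by a median of 8.22 points in the 36 and of 2.86 points in all 332. The 4 of the 36 with the smallest spread over CpGs and at least 20 CpGs are described here. At Arap1 the 30 CpGs ranged from 21.8 to 41.2% in the mean of the controls and from 21.1 to 33.1% in that of the knockouts. The island averaged 32.7 and 27.4% in controls and 29.1 and 24.4% in knockouts, so the groups overlapped. At Wnt4, a secreted signalling protein, the 40 CpGs averaged 38.8 and 30.8% in controls and 27.0 and 24.3% in knockouts. The island in the pseudogene Gm6641 gave 22.8 and 40.7% in controls and 24.95 and 24.7% in knockouts. The island nearest Gm12848 gave 40.8 and 35.0% in controls and 24.9 and 17.2% in knockouts. None of these 4 passed the limma test (adjusted p from 0.0775 to 0.817).

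The mixed island held a sharp step in both controls and rose again in level near its far end. It lies at chr3:62158540-62159480, between genes, 89026 bp from the nearest one, Gm9700. Over its first 500 bp, 28 CpGs averaged 81.4 and 87.4% in controls and 66.8 and 66.2% in knockouts. From 520 to 880 bp, 20 CpGs averaged 6.44 and 6.29% in controls and 4.85 and 4.33% in knockouts. The high side was lower in both knockouts and the low side stayed low. Past 880 bp, outside both sides, the level rose again. The last CpG, at 940 bp, had 36.1 and 42.9% in controls and 48.1 and 29.0% in knockouts. With the step placed on the other control, the contrast between sides was 68.0 and 74.5 points in controls against 54.4 and 57.1 points in knockouts (exact two-sided permutation p = 0.333, the smallest possible). The spread of its CpGs (within-island SD) was 36.9 and 39.5 points in controls against 31.1 and 32.9 points in knockouts. The mean of uniform islands divided by the level of this island was 1.03 and 0.960 in controls against 0.823 and 0.847 in knockouts (exact two-sided permutation p = 0.333). The denominator is 1 island, and the shift of -0.16 turned to 0.023 with 2 mixed islands and to 0.0028 with 4 under other settings.

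Steps of other kinds occurred in islands that the limits did not call mixed. Celsr2 encodes a cadherin with 7 membrane passes, and its island at chr3:108412790-108414857 lies 722 bp from the nearest start site. That distance is counted from whichever end of the island is nearer, not from the island start. Over its first 1200 bp, 67 CpGs averaged 93.4 and 97.0% in controls and 52.1 and 51.5% in knockouts. From 1600 bp on, 27 CpGs averaged 27.2 and 32.3% in controls and 30.2 and 29.0% in knockouts. The methylated side fell to 54.4% of its level, whereas the intermediate side stayed within the spread of the controls. The boundaries of the sides on the mixed island, this island and the next were read from the profiles after they had been seen.

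The island at the shared start of 3110070M22Rik and Tmem267 had the opposite order. Its first 600 bp held 41 CpGs at 3.01 and 2.25% in controls and 6.10 and 2.24% in knockouts. From 660 bp on, 91 CpGs averaged 52.0 and 47.3% in controls and 46.3 and 46.6% in knockouts. The rise began between 600 and 660 bp, within the second Tmem267 window shown above. Knockouts kept 93.5% of the level over the 91 CpGs, but not evenly. From 660 to 1300 bp, 78 CpGs averaged 51.7 and 46.6% in controls against 48.5 and 47.4% in knockouts. From 1300 to 1400 bp, 7 CpGs averaged 52.9 and 50.1% in controls against 30.2 and 36.5% in knockouts. The whole island was 36.6, 33.1, 33.8 and 32.6% over control replicates 1 and 2 and knockout replicates 1 and 2 (limma adjusted p = 0.920).

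**Figure D3:**
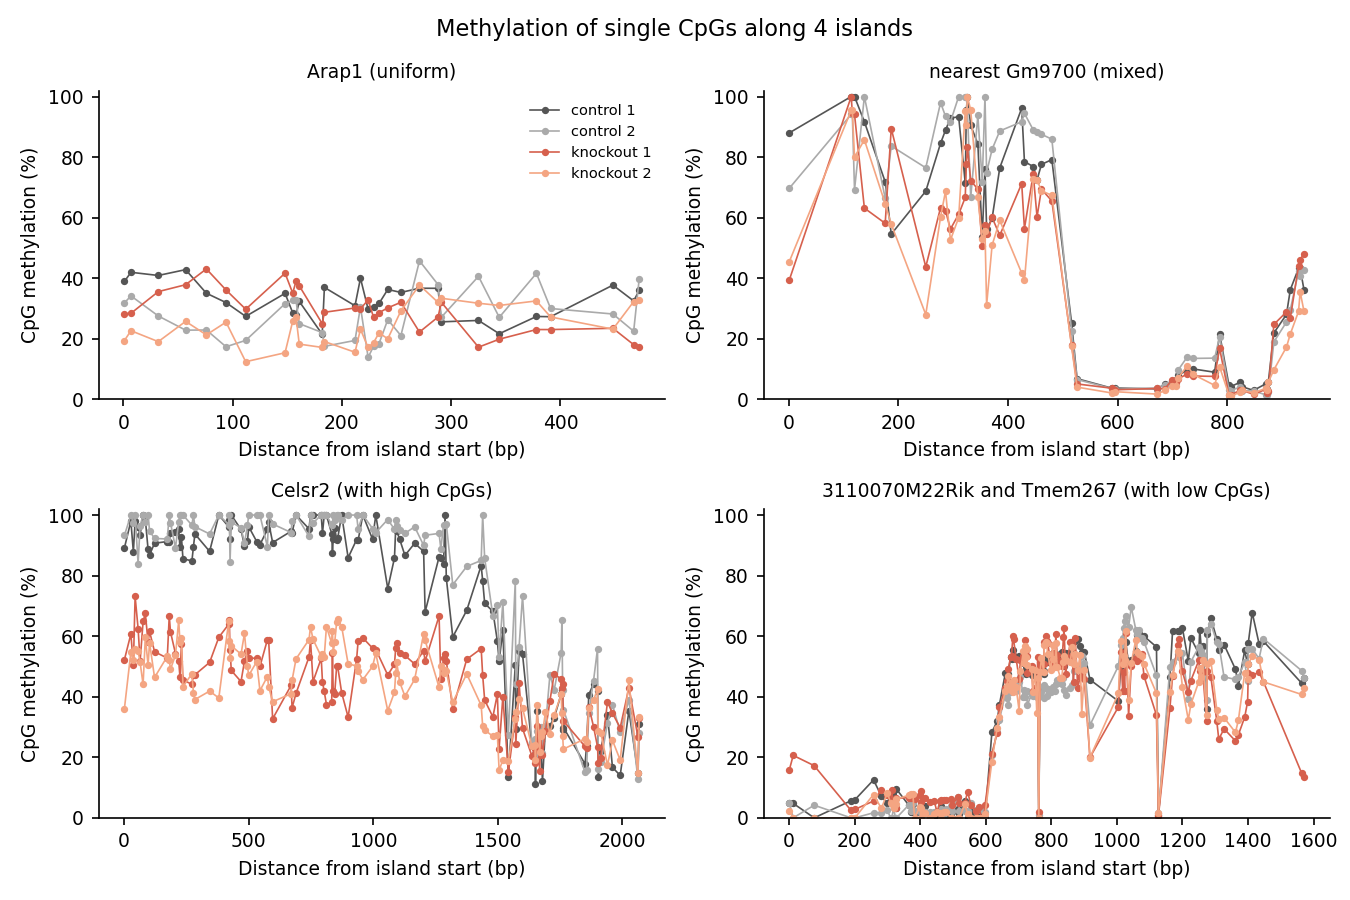
Methylation of single CpGs (%) against distance from the island start (bp) in 2 controls (grey) and 2 knockouts (orange) for 4 islands. Along the Arap1 island single CpGs vary within a sample, from 13.9 to 45.7% in control replicate 2. The level drops near 500 bp in the island nearest Gm9700 and is lower in knockouts on the first 1200 bp of the Celsr2 island. It rises near 600 bp in all samples in the 3110070M22Rik and Tmem267 island.

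Foxo3 and Trio also had a wide spread over their CpGs. The island in Foxo3, a forkhead transcription factor, averaged 44.2 and 46.8% in controls and 29.6 and 22.8% in knockouts, and it was called lower (limma adjusted p = 0.0418). The island in Trio averaged 67.9 and 63.8% in controls and 35.6 and 34.1% in knockouts (limma adjusted p = 0.00237). The step contrast in Trio was 73.3 and 56.1 points in controls against 15.9 and 25.7 points in knockouts.

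Contrasts along islands, read at steps placed on controls, were smaller in knockouts. In the 187 islands that were not uniform the mean step contrast was 14.8 and 14.8 points in controls against 8.55 and 8.82 in knockouts. In uniform islands it was 12.4 and 13.0 points in controls against 6.65 and 6.78 in knockouts. The within-island SD fell likewise, from 16.7 and 17.2 points to 14.2 and 14.5 in islands that were not uniform, and from 14.5 and 15.2 points to 11.6 and 11.9 in uniform ones. All 4 comparisons separated the groups, each with the smallest exact permutation p of 0.333. No step, here or in the islands above, was placed on a knockout, which by itself can lower knockout contrasts. A fall of all CpGs in proportion would also shrink contrasts and SDs. Knockouts kept 67.1% of the level over all intermediate islands. In islands not uniform and uniform they kept 84.8 and 78.9% of the SD, and 58.7 and 52.9% of the step contrast. A flattening beyond these 2 effects was not tested. The pattern of CpGs along an island was shared by the controls, with a median correlation of 0.72 between control replicates over the CpGs of an island.

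Of the 10 islands that hold a start site, 3 were called lower by limma. At Hmox2, which encodes a constitutive heme oxygenase, the island gave 56.0 and 55.2% in controls and 21.7 and 38.2% in knockouts (adjusted p = 0.0397). At LOC115487747, inside 2610035D17Rik, it gave 51.9 and 53.8% in controls and 28.1 and 26.6% in knockouts (adjusted p = 0.00609). At Gm17089, inside the gene of the transcription factor Etv6, it gave 56.9 and 54.7% in controls and 33.7 and 35.6% in knockouts (adjusted p = 0.0208). These 3 had the highest control levels of the 10.

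The other 7 start-site islands had lower control levels. At Gm24463 the levels were 36.5 and 30.3% in controls against 14.2 and 19.4% in knockouts, separate groups that narrowly missed the threshold (limma adjusted p = 0.0507). At Vmn2r29, a vomeronasal receptor gene, they were 33.6 and 46.3% in controls against 30.4 and 32.5% in knockouts. At Gm52707, inside Dlgap3, they were 29.2 and 24.9% in controls against 21.1 and 19.3% in knockouts. Whether the share of calls differed from that of other intermediate islands was not tested. The 322 without a start site had 189 calls and a higher mean level, 56.0 and 56.9% in controls against 39.9 and 42.0%.

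**Figure D4:**
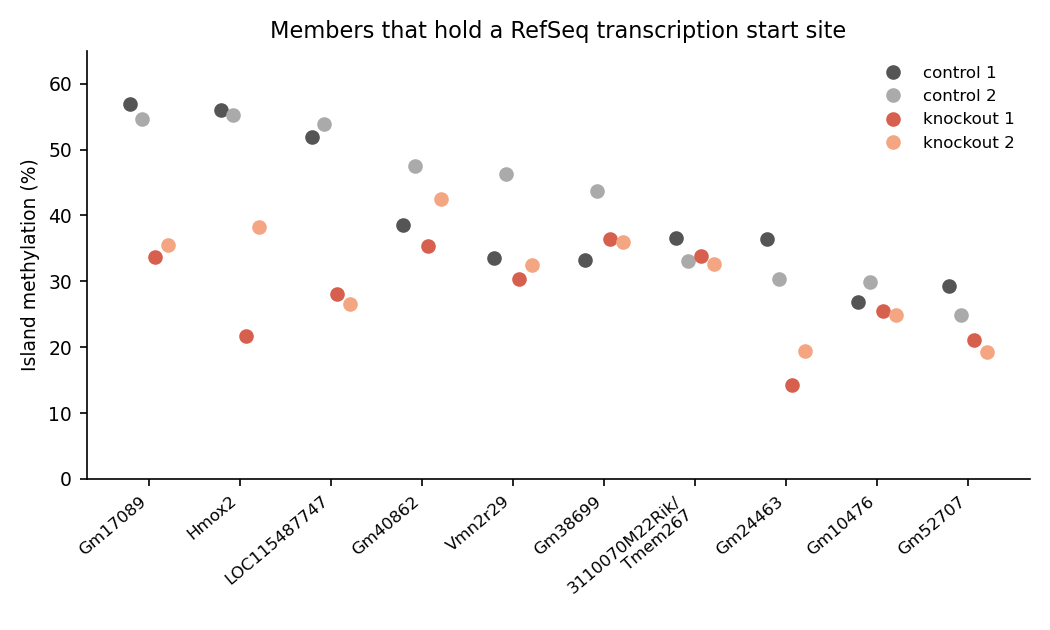
Methylation level (%) of the 10 intermediate islands that hold a RefSeq start site, in 2 controls (grey) and 2 knockouts (orange), ordered by control level. The groups stand far apart at Gm17089, Hmox2 and LOC115487747, and the 4 samples lie close together at 3110070M22Rik and Tmem267.

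Some of the largest islands hardly changed. Of the 8 intermediate islands with at least 90 CpGs measured, a limit set after the values were seen, 5 lay on chromosome 12 between 18 and 25 Mb. They were Gm10476 with 26.9 and 29.9% in controls and 25.6 and 24.8% in knockouts, Gm40862 with 38.5 and 47.6% in controls and 35.4 and 42.6% in knockouts, and Gm38699 with 33.2 and 43.8% in controls and 36.4 and 35.9% in knockouts, plus 2 between genes. The 2 were nearest Gm40843 (25.8 and 51.8% in controls, 35.6 and 35.2% in knockouts) and nearest Gm40853 (21.3 and 30.7% in controls, 31.0 and 29.6% in knockouts). The 5 kept 88.7 to 116% of the control level, and none passed the limma test (adjusted p from 0.742 to 0.928). In 4 of them the controls themselves differed by more than the groups did.

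Smaller intermediate islands in the same stretch of chromosome 12 did fall. The 10 with under 90 CpGs averaged 70.2 and 72.7% in controls and 51.2 and 49.0% in knockouts, and 8 were called lower. The share called lower was 57.8% over all 332, and 92.5% over those at 60 to under 80% in controls. One of the 10 overlaps Zfp996, a zinc finger gene, with 78.0 and 76.4% in controls and 44.0 and 56.2% in knockouts (limma adjusted p = 0.00564). The 2 size groups also differ in control level. Chromosome 12 had the highest share of intermediate islands, 26 of 660 (3.94%), against 1.27% on chromosomes 2 and 11.

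The stretch under 2 Mb with the most intermediate islands was on chromosome 10 from 79675248 to 81588086, with 15 among 160 islands, and every one of the 15 lies in a gene. By share, chromosome 12 from 18162662 to 19955130 held more, 8 of 23. Those 8 averaged 59.8 and 67.2% in controls against 46.8 and 46.0% in knockouts. The 15 on chromosome 10 averaged 46.3 and 48.1% in controls against 27.6 and 27.7% in knockouts. Of these 15, 8 were called lower, a share near the 57.8% of all 332. At Dot1l, the histone H3 lysine methyltransferase of transcribed genes, the levels were 40.1 and 41.7% in controls against 17.0 and 19.7% in knockouts (limma adjusted p = 0.00765). At Mbd3, a subunit of the NuRD chromatin remodelling complex, they were 71.8 and 68.0% in controls against 36.8 and 46.0% in knockouts (limma adjusted p = 0.00540). At Klf16, a zinc finger transcription factor, they were 72.4 and 75.7% in controls against 34.8 and 41.9% in knockouts. The kept share ranged from 44.9% at Dot1l to 78.8% at Zbtb7a, where the levels were 20.5 and 23.1% in controls against 16.6 and 17.8% in knockouts.

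Most intermediate islands lay in genes and away from their starts. Inside RefSeq genes were 209 (63.0%), against 50.8% of methylated and 95.3% of unmethylated islands. Of uniform islands 80.7% were in genes, of those with high CpGs 35.0%, and of those with low CpGs 89.8%. Where the direction of the gene was known, the median island lay at 0.68 of the gene's length from its start (n = 152), and 40.8% lay in the last 25% of it. The median was 0.73 for methylated islands and 0.01 for unmethylated ones. Only 5.25% of intermediate islands lay within 1000 bp of a start site, against 67.4% of unmethylated islands.

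Where both sides could be read, the DNA beside intermediate islands was mostly methylated in controls. Over the 204 with at least 10 cytosines measured on each side within 2000 bp, other islands left out, the median flank level was 77.9% in controls against 43.5% in knockouts. The median level of the same 204 islands was 45.7% in controls, below the flank in 177, and 31.2% in knockouts, below the flank in 165. Flank level and island level were almost unrelated across these islands (r = 0.13, a description over islands of the same libraries).

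Within the same range of starting level, islands in genes kept less than islands between genes. Among those at 60 to under 80% in controls, a comparison added after the data had been seen, the 76 in genes averaged 69.4 and 70.6% in controls and 43.1 and 42.8% in knockouts. The 97 between genes averaged 74.1 and 75.5% in controls and 52.0 and 51.7% in knockouts. The ratio of the 2 means was 0.936 and 0.936 in controls against 0.828 and 0.828 in knockouts, a shift far beyond the spread within either group (exact two-sided permutation p = 0.333, the smallest possible). The genic islands kept 61.3% and the others 69.3%. The genic islands started lower within the range. A median of 86.3% of their cytosines was measured, against 55.2% between genes. The part of these differences in the result was not tested. Fully methylated islands showed the same order, with 62.4% kept in genes and 70.4% between genes.

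**Figure D5:**
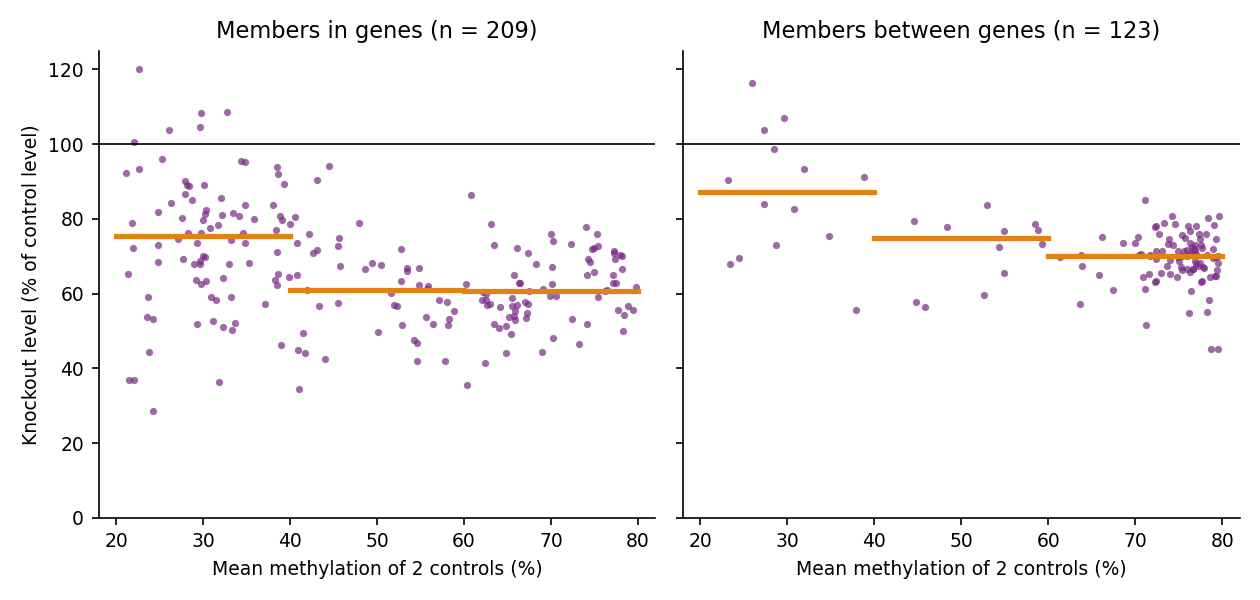
Knockout level as a percent of control level against the mean level of 2 controls (%) for the 209 intermediate islands in genes and the 123 between genes, each point 1 island. Orange lines are medians over islands at 20 to under 40, 40 to under 60 and 60 to under 80%, and they are higher between genes in each range, 70.1 against 60.6% in the last.

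Among the 8 largest falls, all but those nearest Rnf223 and Gm6988 were in genes, where 63.0% of all 332 intermediate islands lay. At Mycn, the N-Myc proto-oncogene, the island at chr12:12936889-12937708 gave 65.3 and 75.1% in controls and 32.2 and 35.4% in knockouts (log2 ratio change -2.18 ± 0.30 SE, limma adjusted p = 0.00191). A second intermediate island in Mycn, nearer its start, gave 25.9 and 37.8% in controls and 8.42 and 14.8% in knockouts (limma adjusted p = 0.0314). Both islands of the gene were lower in both knockouts. At Runx3, a Runt domain transcription factor, the levels were 68.4 and 69.7% in controls against 27.0 and 34.3% in knockouts (limma adjusted p = 0.00100). At Zmynd8, a reader of acetylated histones, they were 76.8 and 79.7% in controls against 40.5 and 37.7% in knockouts (limma adjusted p = 4.6e-04).

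Taok3, a protein kinase gene, had an island at 78.4 and 68.2% in controls and 27.9 and 40.5% in knockouts (limma adjusted p = 0.00296). The islands nearest Rnf223 and Gm6988 lie between genes. They gave 79.1 and 79.8% in controls with 29.1 and 42.6% in knockouts, and 78.8 and 78.7% in controls with 44.4 and 27.0% in knockouts. Their falls, -43.7 and -43.1 points, were the largest of the 332, with knockouts 13.5 and 17.4 points apart and 15 and 14 CpGs measured.

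Pik3r2 and Mex3a completed the 8 and also lost a larger share than the typical island. This was tested with limma on centred log2 levels over 1105 islands whose controls averaged 20% or more, of which 4.89% were called below the median share and 7.24% above it. Of the intermediate islands 3 were called below and 6 above. At Pik3r2, a regulatory subunit of phosphoinositide 3-kinase, the island fell from 56.4 and 64.3% to 20.3 and 22.5%, 35.5% of the control level (adjusted p = 0.0346). At Mex3a, an RNA-binding protein gene, it fell from 58.3 and 66.6% to 25.9 and 25.9% (adjusted p = 0.0444). At Zfp36l1, which encodes a protein that destabilises mRNAs, it fell from 39.6 and 42.5% to 12.7 and 15.7% (adjusted p = 0.0463).

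The 6 called above all lay between genes and at 60 to under 80% in controls, a range in which 97 of 173 islands lay between genes. Of the 622 methylated islands 306 lay between genes, and of the 71 of them called above 50 did. Among the 6, the largest share, 85.1%, was kept at the island nearest D3Ertd751e. It had 69.1 and 73.1% in controls and 57.0 and 64.0% in knockouts (adjusted p = 0.0463). The island nearest Gm4657 gave 79.7 and 79.6% in controls and 65.2 and 63.6% in knockouts (adjusted p = 0.0336). The others were nearest Cox7c, Gm7200, Gm24686 and Olfr863-ps1 and kept 78.1 to 80.9%. None of these 9 calls held without control replicate 1 or without control replicate 2 (adjusted p from 0.344 to 0.396), while more islands passed without either knockout.

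The lowest kept share of all was at Cdkn2a, the gene of the p16 and p19 tumour suppressors, singled out after its values were seen. Its island at chr4:89276413-89277250 gave 20.8 and 27.7% in controls and 5.22 and 8.61% in knockouts, 28.5% of the control level (limma adjusted p = 0.0132).

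At the other end of the order of knockout minus control, the 8 highest values were rises of 0.986 to 4.54 points, all at islands with control levels under 40%. At Drosha, the nuclease that starts microRNA processing, the levels were 31.3 and 34.1% in controls against 42.2 and 29.0% in knockouts, and the groups overlapped. At Abcb9, a lysosomal peptide transporter gene, they were 25.6 and 26.5% in controls against 27.1 and 27.0% in knockouts. At Trappc5, a subunit of a vesicle tethering complex, they were 30.1 and 29.3% in controls against 34.0 and 28.1% in knockouts. At Anks1b, an ankyrin repeat protein gene, they were 21.1 and 38.5% in controls against 40.3 and 24.3% in knockouts. The pseudogene Gm12892 had 23.1 and 22.1% in controls and 30.6 and 23.7% in knockouts, the highest kept share (120%). The others were nearest Aasdhppt, Vmn1r-ps48 and Gm40853. None of the 8 rises passed the limma test (adjusted p from 0.707 to 0.972).

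Zinc finger genes of the Zfp series hold KRAB-type repressors and other factors, and 9 of their 316 islands were intermediate. Of the 9, 6 were called lower by limma, against 57.8% of all 332. The largest fall was at Zfp651, from 78.4 and 79.3% in controls to 42.0 and 47.6% in knockouts (adjusted p = 8.5e-04). Zfp513 fell from 63.6 and 70.8% to 39.2 and 34.4% (adjusted p = 0.00376), and Zfp213 from 69.6 and 68.5% to 44.4 and 40.2% (adjusted p = 0.00428). Zfp319, with 106 CpGs, fell from 53.7 and 50.2% to 32.8 and 26.4%. Zfp27 fell from 67.2 and 57.8% to 32.5 and 42.5%, and Zfp996 is given above. Zfp628, Zfp768 and Zfp668 did not pass (adjusted p from 0.304 to 0.594).

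Of 28 islands at meiotic genes, 1 was intermediate. It lies in Stag3, which encodes a cohesin subunit of meiotic chromosomes, and gave 32.7 and 29.4% in controls and 16.4 and 16.4% in knockouts. The groups were separate, and the adjusted p of 0.0509 missed the limma threshold. No island at Hox genes (68 islands), clustered protocadherins (49), replication-dependent histones (46), paternally methylated imprinted genes (4) or genes of the methylation machinery (12) was intermediate.

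The controls differed by at least 15 points at 14 of the 332 (4.22%), gaps that the range from 20 to under 80% leaves room for. The widest gap was at Sall3, a zinc finger transcription factor gene, with 79.9 and 51.6% in controls and 37.5 and 33.5% in knockouts (limma adjusted p = 0.0735). The next was at the island nearest Gm40843 on chromosome 12, given above. At Disp1, a transporter for Hedgehog ligands, the controls gave 65.7 and 44.0% and the knockouts 37.1 and 31.4%. Without the 14 the mean difference was -18.6 points.

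The limits of the range cut through a continuum. Just inside the lower limit were Sh2b2 (22.2 and 20.1% in controls) and Grm4 (23.6 and 20.3%), and just outside were Myh7b (26.8 and 19.3%) and Rab11fip3 (24.7 and 19.3%). Just inside the upper limit were islands nearest Gm8747 (78.9 and 79.99%) and Rgs17 (79.97 and 78.3%), and just outside were islands nearest Gm41318 (77.2 and 80.01%) and Plekha5 (80.1 and 70.3%).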

How the data were processed

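PBAT bisulfite libraries of 2 control and 2 knockout samples were analysed from a deposited table. Its values, which the authors deposited in percent, are methylation levels of single CpG cytosines per sample, with the strands apart. Its title names a minimum of 10 reads. The build was mm10, per the submitters' processing notes. Neither aligner nor caller is given in the sources used here. Read depth is unknown, so all values weigh the same and no interval for single cytosines was computed. Cytosines at adjacent positions were joined as 1 CpG, and an island's level was the mean over cytosines with a value in all 4 samples.

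Islands were tested over the whole table (16151 islands, autosomes and X) with limma 3.58.1 (R 4.3.3), using a robust, trended prior, on the log2 ratio of methylated to unmethylated fraction with 0.01 added to each. Calls needed 10 points of difference and p under 0.05 after Benjamini-Hochberg adjustment. The kept share was tested on log2(percent + 1), each sample centred on its median over 1105 islands. The prior carried a median of 6.76 and 3.09 degrees of freedom in the 2 fits, against 2 from each island itself. Single values per sample were compared with exact two-sided permutation tests. A sample left alone in its group was given the spread of the other group.

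Gene positions and start-site sequences came from RefSeq tables of GRCm38.p6, the same build as mm10. Start sites on chromosome 18 were not used here, nor was a genome sequence, so exons, introns and repeats were not analysed. Sequence windows were compared with Biopython 1.88 (local alignment). The islands and gene lists were chosen with earlier results of these data known. Named are the 8 lowest and the 8 highest values of knockout minus control (the 8 highest were all rises), 4 islands with all CpGs intermediate and the least spread, the 4 widest CpG spreads (over all islands, since 1 was mixed; at least 20 CpGs), every island at a listed gene and those next to the limits. Others were named after their values were seen. Alternatives covered the island definition, CpG minimum, class limits, variance model, scale and each sample left out.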

Additional observations from a re-analysis of the deposited data

How the results depend on the processing

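The fall over all intermediate islands kept its direction under every alternative run for it. With islands of 40 CpGs per 500 bp, 41 were intermediate, 20 of them uniform and 0 mixed, and 10 were called lower. With at least 20 CpGs measured, 16 were called above and 5 below the median kept share. With a range of 30 to under 70%, 128 islands qualified, 57 were called lower, 0 were called above the median share, and the shift in the ratio to methylated islands was -0.021 instead of 0.0079. It was 0.020 with islands of 40 CpGs per 500 bp, 0.016 with at least 20 CpGs and 0.014 on each sample's own cytosines. Read on each sample's own cytosines, 2 islands were mixed and the shift in the uniform to mixed ratio was 0.023 instead of -0.16. With class limits of 60 and 10% it was 0.0028 with 4 mixed islands, and with 90 and 30% 70 islands were uniform. An untrended variance left 0 calls of kept share in either direction, and each island's own spread left 0 calls of kept share and 0 of 192 falls. The causes were not tested. Leaving out 1 sample gave 45 to 153 islands called lower, 0 to 63 called above and 0 to 37 below the median share, and a ratio shift from -0.0022 to 0.018. Of the 192 called lower, 27 were called in all 4 of these fits. The step contrast was not run without a control, since it is placed on one and read in the other. With the replicate number as a block, 11 islands were called above and 10 below the median share and 215 lower. The deviations of same-numbered samples from their group means had r = -0.013 over the 332 islands and 0.073 over all 16151, and the labels name nothing that the numbers share. The 2 samples per group and the unknown read depth limit every call.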
